A study of Homo sapiens with 9 samples.

Results

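A pair of small interfering RNAs (siRNAs) against the same gene, ORM1, was compared in HCT116 cells, a widely used line from a human colorectal carcinoma. The comparison used 6 of the 9 RNA-seq libraries of the study, 3 from cells given ORM1 siRNA 1 and 3 from cells given ORM1 siRNA 2, chosen by their labels alone. The cells of every group were transfected with Lipofectamine RNAiMax, and the label of each library gives the batch as Day 3. A further group of 3 libraries, from cells given a control siRNA, gave no values to the contrast itself and is quoted for orientation. All groups are the parental line with no genetic alteration named, and the labels do not say whether the libraries of a group came from separate cultures, so p-values cover only the variation among these libraries, possibly technical. Of 61806 identifiers in the deposited count table, 20932 passed a filter on low counts and were tested.

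ORM1 encodes orosomucoid 1, a glycoprotein that the liver secretes into plasma in larger amounts during inflammation, and ORM2 is its close neighbour and near copy. An siRNA loads into the Argonaute complex and directs cleavage of transcripts that match it closely. Through a short stretch near its 5′ end, the seed, it can also lower transcripts that match only in part. The seed can differ between siRNAs of different sequence. A pair of siRNAs against 1 target therefore share the target and need not share the partial matches. The sequences of these siRNAs are not in the sources used here, so their seeds were not examined.

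The siRNA 1 libraries held 60698684 to 69847444 counts and the siRNA 2 libraries 66475531 to 71431723. The share of counts on mitochondrially encoded genes was 8.34% to 8.62% in siRNA 1 libraries and 8.02% to 8.09% in siRNA 2 libraries, against 8.34% to 8.51% in control libraries. The part of this difference in the results was not tested. The share covers every gene symbol that starts with MT-, a wider set than the list of 13 such genes read below. That list summed to 75310 ± 1740 CPM under siRNA 1 and 74960 ± 391 CPM under siRNA 2 (SD, n = 3 each). Of 25 colon epithelium markers, 13 reached 1 CPM in some library, among them EPCAM, KRT18, KRT19 and CDX2, while CDX1, CEACAM5, CEACAM6, TFF3 and FABP1 were at 0 in all 9. Their summed level was 3874 to 4055 CPM under siRNA 1, 3910 to 4106 CPM under siRNA 2 and 4522 to 4836 CPM in control cells. Hepatocyte markers summed to 48.1 to 50.6 CPM under siRNA 1 and 49.9 to 52.1 CPM under siRNA 2, and 0 of the 9 tested passed the test. Fibroblast markers summed to 137 to 142 CPM under siRNA 1 and 129 to 132 CPM under siRNA 2, with 0 of 5 tested passing. Leukocyte markers summed to 13.9 to 15.8 CPM under siRNA 1 and 7.199 to 10.7 CPM under siRNA 2, and 1 of 8 tested passed, CD68, a call lost without siRNA 1 replicate 3. Only 4 of 22 hepatocyte, 4 of 15 fibroblast and 3 of 18 leukocyte markers reached 1 CPM in some library. Most of the hepatocyte sum was CPS1, most of the fibroblast sum COL1A1, S100A4 and FBLN1, and most of the leukocyte sum CD68. ALB, APOB, COL1A2, DCN, PTPRC and CD3E stayed below 1 CPM in every library. Here and throughout, CPM is counts per 1000000 of the scaled library.

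ORM1 itself was nearly absent under both siRNAs. ORM1 (chromosome 9, 114323056 to 114326475, plus strand, GRCh38 annotation) had 0, 0 and 5 counts in the siRNA 1 libraries and 8, 0 and 12 counts in the siRNA 2 libraries, against 63, 56 and 59 counts in the control libraries. The libraries of both siRNAs overlapped and lay below every control library. The mean level was 0.0246 ± 0.0425 CPM under siRNA 1 and 0.0973 ± 0.0878 CPM under siRNA 2 (SD, n = 3 each). In control cells it was 0.915 ± 0.0336 CPM, so ORM1 was under 1 CPM there too. The log2 difference between the siRNAs in edgeR's quasi-likelihood fit was -1.89 (edgeR adjusted p = 0.32). The difference of -0.0728 CPM was not larger than the spread between libraries (exact two-sided permutation p = 0.4). With 3 libraries against 3 this test cannot go below 0.1, and a count of 0 allows up to 0.0489 CPM, the value of 3 counts in the shallowest siRNA 1 library. At this depth a difference in residual ORM1 between the siRNAs was not detectable.

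ORM2, on the same strand at 114329869 to 114333252 of chromosome 9, had 19, 8 and 0 counts under siRNA 1 and 0, 8 and 14 counts under siRNA 2, against 38, 39 and 66 in control cells. Reads shared by ORM1 and ORM2 may have been divided between them, so both values are uncertain. The ORM2 difference of 0.035 CPM had an exact two-sided permutation p of 1.0, and for the sum of both genes p was 0.5.

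The transcriptomes under the siRNAs were separate. In a principal component analysis of the 6 libraries, the first component held 26.8% of the variance and separated siRNA 1 from siRNA 2. Of the 20932 genes, 3752 (17.9%) passed edgeR's quasi-likelihood test at a Benjamini-Hochberg adjusted p below 0.05. Under siRNA 1, 1694 genes were higher (8.09%) and 2058 lower (9.83%). The split depends on scaling: with total-count scaling 2017 were higher and 1666 lower, and with upper-quartile scaling 1909 and 1753. The median log2 difference over all genes was 0.0093 and moved by less than 0.1 in every setting.

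**Figure D1:**
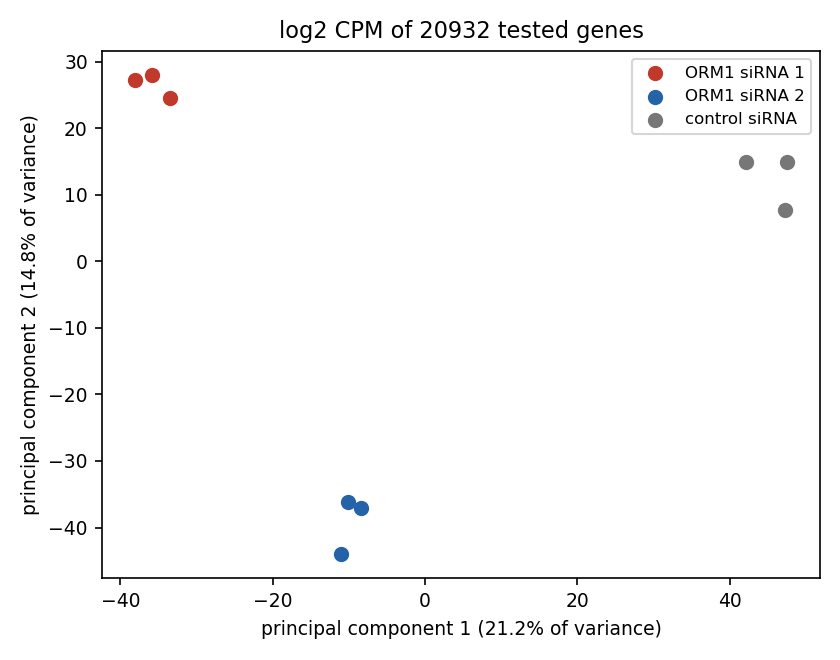
Principal components 1 and 2 of log2 CPM over the tested genes for 9 libraries, as points coloured by group; the axes give 21.2% and 14.8% of the variance. The libraries of ORM1 siRNA 1, of ORM1 siRNA 2 and of the control siRNA form 3 separate groups.

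Most differences were small, with a few large ones. A fold of at least 1.5 was reached by 341 called genes that were higher and 166 that were lower under siRNA 1, and a fold of at least 2 by 141 and 48. The size of called differences fell with level. Their median absolute log2 difference was 1.632 under 1 CPM (87 higher, 38 lower), 0.775 at 1 to 5 CPM (159 higher, 55 lower) and 0.183 at 100 CPM or more. Tested against a fold of 1.5 rather than against no change, 46 genes passed, 26 higher and 20 lower. The share called climbed with level: 2.01% of genes under 1 CPM were called and 47.3% of genes at 100 CPM or more. In that top class 297 genes were higher and 724 lower under siRNA 1, whereas at 5 to 20 CPM 354 were higher and 197 lower. Of protein-coding genes, 1532 were higher and 1970 lower under siRNA 1, or 24.1% of those tested, against 3.47% of antisense genes and 4.82% of lincRNAs. GC content and length were taken from the longest annotated transcript of protein-coding genes with a mean of at least 1 CPM. Among these, the 1482 genes higher under siRNA 1 had a median GC content of 52.0% and a median transcript length of 4380 bases. The 1950 lower had 47.0% and 3670 bases, and the 9197 not called 48.9% and 3615 bases. The part of these properties in the differences was not tested.

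**Figure D2:**
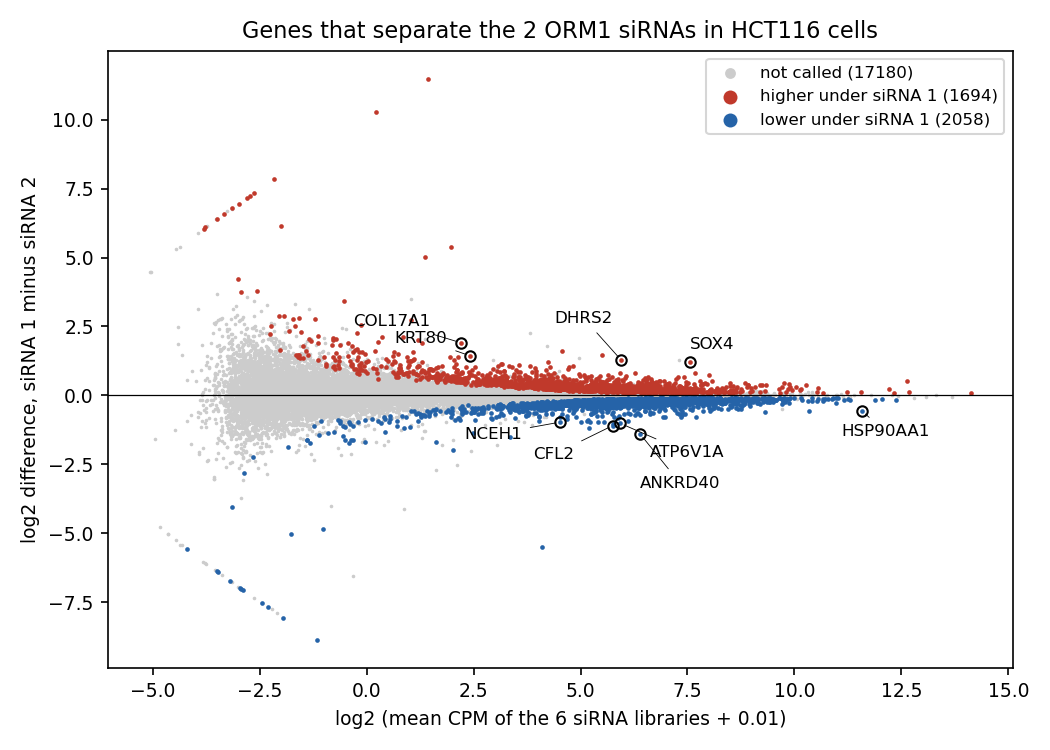
Each point is a tested gene, with log2 of the mean CPM of the 6 siRNA libraries (plus 0.01) on the horizontal axis and the log2 difference, siRNA 1 minus siRNA 2, on the vertical axis. The 1694 genes higher under siRNA 1 are red, the 2058 lower are blue and circles mark named genes; points past 5 on either side of 0 are low or scattered genes.

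Differences below are log2 values, siRNA 1 minus siRNA 2, from edgeR's quasi-likelihood fit, with adjusted p-values over all genes. The genes that were most raised under siRNA 1 included a transcription factor, an oxidoreductase and epithelial structural genes. SOX4, a transcription factor of progenitor and tumour cells, had 264, 267 and 258 CPM under siRNA 1 and 113, 112 and 112 CPM under siRNA 2, against 70.9, 71.7 and 76.1 CPM in control cells. The 3 groups did not overlap, and SOX4 stood 2.34-fold higher under siRNA 1 than under siRNA 2 (log2 1.23, SE 0.03, edgeR adjusted p = 1.9e-09). DHRS2, a short-chain dehydrogenase, was 2.43-fold higher, with 87.5 ± 2.15 CPM under siRNA 1 and 35.9 ± 2.55 CPM under siRNA 2, against 13.5 ± 0.0924 CPM in control cells (SD, n = 3 each). For both genes the siRNA 2 libraries lay between the other groups.

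COL17A1, the transmembrane collagen of hemidesmosomes, had 7.46, 7.04 and 7.35 CPM under siRNA 1 and 1.90, 1.56 and 2.36 CPM under siRNA 2, against 1.62, 2.47 and 2.00 CPM in control cells. Here siRNA 2 and control overlapped and siRNA 1 stood apart, with a log2 difference of 1.91, a fold of 3.75 (SE 0.19, edgeR adjusted p = 3.1e-05).

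KRT80, a type II keratin, differed through siRNA 2 instead. It had 8.32, 7.64 and 7.32 CPM under siRNA 1 and 2.49, 3.22 and 2.87 CPM under siRNA 2, against 8.84, 9.65 and 9.70 CPM in control cells. Every siRNA 2 library lay below every library of the other groups, and the fold between the siRNAs was 2.71. Further genes higher under siRNA 1 were PROM2, a pentaspan membrane glycoprotein (1.39), SCG2, a secretory granule protein (1.22), CEMIP, which takes part in hyaluronan breakdown (1.13), and RGS2, a regulator of G protein signalling (1.08).

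On the other side, ANKRD40, an ankyrin repeat protein (chromosome 17, 50693190 to 50707924, minus strand), had the clearest loss. ANKRD40 was at 46.3, 48.8 and 43.5 CPM under siRNA 1 and at 122, 122 and 122 CPM under siRNA 2, against 125, 110 and 114 CPM in control cells. It was 2.64-fold lower under siRNA 1 than under siRNA 2 (log2 -1.40, SE 0.05, edgeR adjusted p = 2.8e-08), while siRNA 2 did not pass against control (adjusted p = 0.36). CFL2, the muscle-type cofilin that severs actin filaments, had 34.2, 32.8 and 36.3 CPM under siRNA 1 and 72.6, 75.6 and 72.0 CPM under siRNA 2, against 88.7, 85.3 and 91.6 CPM in control cells. ATP6V1A, the catalytic subunit of the vacuolar proton pump, had 38.1, 39.8 and 43.2 CPM under siRNA 1 and 83.1, 80.9 and 80.5 CPM under siRNA 2, against 91.1, 91.2 and 87.8 CPM in control cells. In both, siRNA 1 lay far below and siRNA 2 just below control. NCEH1, a neutral cholesterol ester hydrolase (-0.97), SLC35A4, a Golgi transporter family member (-0.96), and USP38, a deubiquitinase (-0.91), were also lower under siRNA 1.

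**Figure D3:**
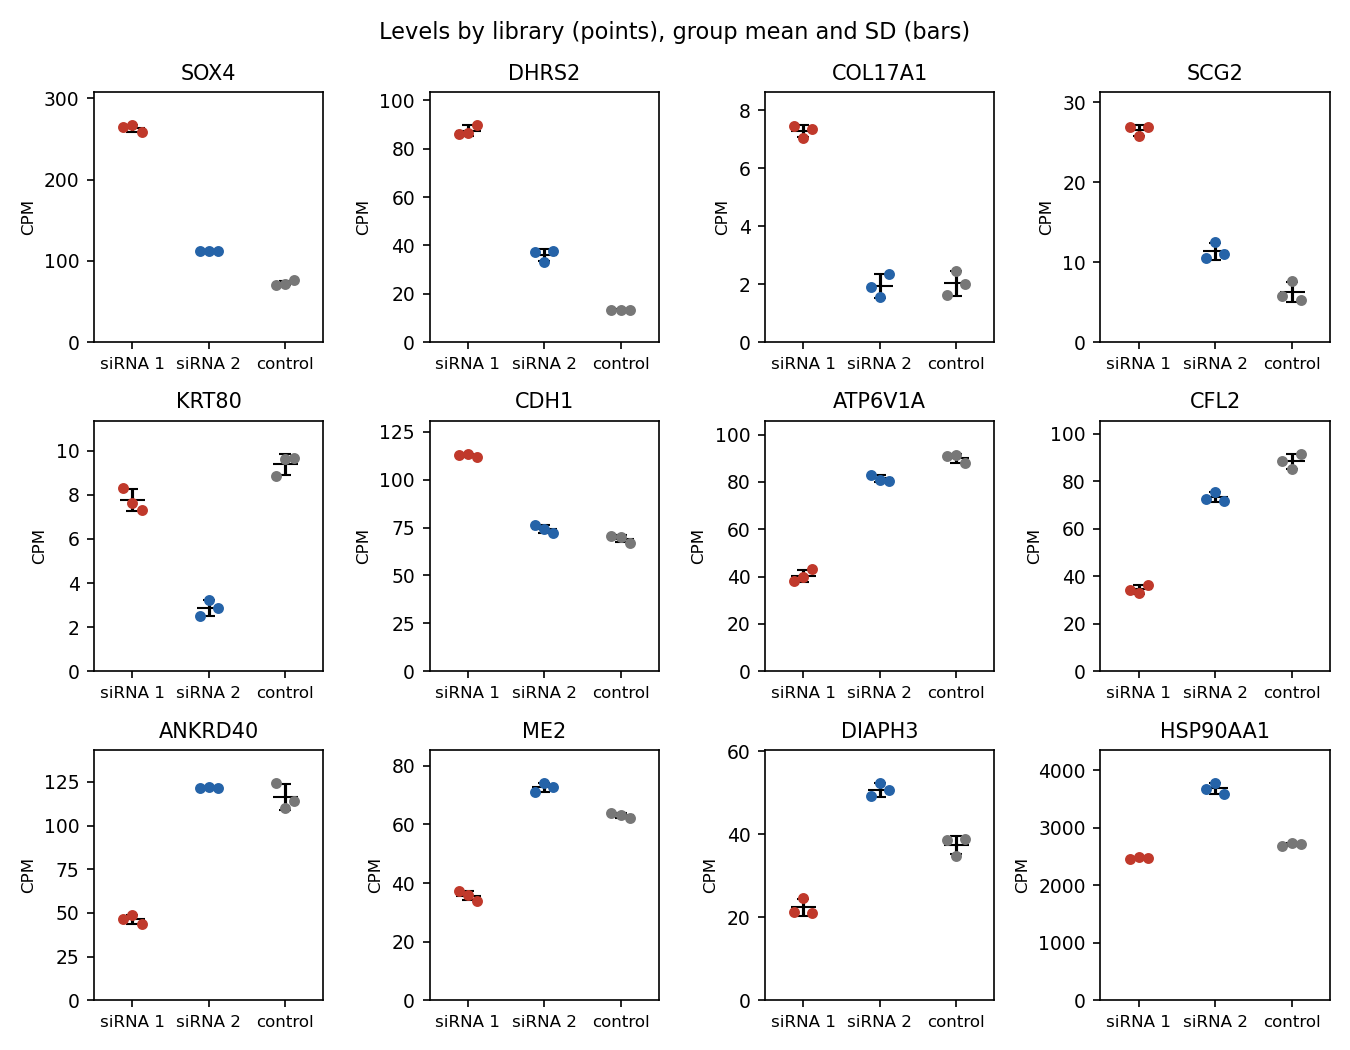
CPM on linear axes from 0 for 12 genes, 1 panel each, with a point per library and bars for the group mean and SD (n = 3), in the order siRNA 1, siRNA 2 and control. SOX4, DHRS2, COL17A1, SCG2, KRT80 and CDH1 are higher under siRNA 1 than under siRNA 2 and the other 6 are lower; siRNA 2 overlaps control for COL17A1 and ANKRD40.

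A few called differences past a log2 of 3 came from identifiers whose libraries scattered within a group. ISY1-RAB43, a readthrough gene chosen here after its values were seen, had 0, 0 and 16.2 CPM under siRNA 1 and 0 CPM in every siRNA 2 library, against 11.8, 15.4 and 16.5 CPM in control cells. Such genes overlap their neighbours, so how shared reads were counted can set their values, and no direction is drawn from them.

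Each siRNA was also compared with control, and because those comparisons use the same 3 control libraries they are given only side by side. Against control, 6389 genes (30.5%) were called under siRNA 1 and 5597 (26.7%) under siRNA 2. Among the 3752 genes that differed between the siRNAs, 1281 (6.12% of genes tested) were called against control under siRNA 1 and not under siRNA 2, as with COL17A1, KRT20 and ANKRD40. Another 912 (4.36%) were called under siRNA 2 and not under siRNA 1, as with KRT80, LMO7 and PMAIP1. Neither comparison with control called 428 of them (2.04%), for example BMP6, a ligand of the BMP family, and DGAT2, which makes triacylglycerol. In 135 genes (0.645%) both were called with opposite signs. In the rest, SOX4 and DHRS2 among them, both were called with the same sign.

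DIAPH3, a formin that nucleates actin, had 21.4, 24.7 and 21.1 CPM under siRNA 1 and 49.1, 52.4 and 50.6 CPM under siRNA 2, against 38.6, 34.8 and 38.9 CPM in control cells. Control libraries lay between the siRNAs without overlap, at log2 -0.74 for siRNA 1 against control and 0.44 for siRNA 2 against control. ME2, the mitochondrial malic enzyme, was at 35.6 ± 1.58 CPM under siRNA 1 and 72.7 ± 1.62 CPM under siRNA 2, against 63.2 ± 0.874 CPM in control cells (SD, n = 3 each). ARRDC4, an arrestin-domain protein that responds to glucose, ran the other way, with 16.1 ± 0.621 CPM under siRNA 1 and 7.59 ± 0.588 CPM under siRNA 2, against 10.96 ± 1.11 CPM in control cells. The phosphatase gene DUSP4, a feedback inhibitor of ERK signalling, likewise had 318, 329 and 326 CPM under siRNA 1 and 193, 194 and 188 CPM under siRNA 2, against 210, 215 and 213 CPM in control cells.

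Genes were then read by lists of function, 42 in all, against the background of 8.09% higher and 9.83% lower. That background covers all tested genes, and genes of higher level were called more often. At 100 CPM or more, 297 of 2160 genes were higher and 724 lower, and at 20 to 100 CPM 797 of 6182 were higher and 1044 lower. Lists of abundant genes are to be read beside these counts, and the part of level in the list counts was not tested. Lists of dividing cells had many lower members. Of 60 tested genes of G1/S and DNA replication, 43 were lower under siRNA 1 and 1 was higher, with a median of -0.209 against 0.0093 over all genes. Their summed level was 6159 ± 35.9 CPM under siRNA 1 and 7413 ± 79.2 CPM under siRNA 2, against 5557 ± 57.0 CPM in control cells (SD, n = 3 each), so both siRNAs lay above control and siRNA 2 further above. In bulk RNA, fewer cycling cells and less of these transcripts per cell cannot be told apart. Against control, 35 of the list rose and 5 fell under siRNA 1, and 58 rose and 0 fell under siRNA 2. Over all tested genes, 15.7% were called higher and 14.8% lower under siRNA 1 against control, and 14.2% and 12.6% under siRNA 2. These shares are the background for this list and for the later list counts against control.

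CHAF1B, a subunit of the chromatin assembly factor behind the replication fork, had 34.2, 33.5 and 35.2 CPM under siRNA 1 and 54.9, 58.8 and 57.0 CPM under siRNA 2, against 41.5, 42.2 and 40.9 CPM in control cells. MCM6, a subunit of the replicative helicase, had 120, 122 and 123 CPM under siRNA 1 and 197, 195 and 188 CPM under siRNA 2, against 140, 149 and 143 CPM in control cells. For these genes control lay between the siRNAs with no overlap. The helicase loader CDC6 (-0.56) and the helicase subunit MCM5 (-0.49) were also lower. The factor E2F1, which drives many such genes, was at 28.6, 29.8 and 27.9 CPM under siRNA 1 and at 38.0, 41.3 and 35.6 CPM under siRNA 2, against 28.1, 26.9 and 28.9 CPM in control cells (log2 -0.41, edgeR adjusted p = 0.00058).

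Of 60 tested G2/M and mitosis genes, 32 were lower and 0 higher under siRNA 1 (median -0.155), and their sum was 7110 ± 31.2 CPM under siRNA 1 and 7952 ± 57.7 CPM under siRNA 2, against 6406 ± 31.6 CPM in control cells. The mitotic kinase AURKA (-0.37), the spindle proteins HMMR (-0.35) and ASPM (-0.31), the kinesin KIF20A (-0.30) and the checkpoint kinase BUB1B (-0.30) were among them. Of 56 DNA repair and checkpoint genes, 25 were lower and 1 higher (median -0.126), including FANCD2 of the crosslink repair pathway (-0.39), PARP2 (-0.39) and BRCA1 (-0.30). The list of 35 cyclins and CDK inhibitors had calls both ways, 11 higher and 9 lower. Its higher members CDKN1C (0.69), CCNG2 (0.68) and CDKN2B (0.50) are known to restrain the cycle. Of its E2F members, E2F3 was higher (0.36), and E2F6 (-0.45) and E2F1 (-0.41) were lower, so the list is given no single direction. Leaving out siRNA 1 replicate 3 left 7 higher.

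Of 45 heat shock and chaperone genes, 33 were lower and 0 higher under siRNA 1 (median -0.17). Its sum was 17450 ± 79.1 CPM under siRNA 1 and 20890 ± 401 CPM under siRNA 2, against 17580 ± 234 CPM in control cells, a sum that abundant members weigh most. Member by member, 25 fell and 6 rose under siRNA 1 against control, and 7 fell and 19 rose under siRNA 2 against control. HSP90AA1, the inducible cytosolic HSP90, had 2455, 2484 and 2470 CPM under siRNA 1 and 3677, 3782 and 3583 CPM under siRNA 2, against 2676, 2735 and 2713 CPM in control cells. HSPD1, the mitochondrial chaperonin, had 1056, 1048 and 1065 CPM under siRNA 1 and 1543, 1576 and 1517 CPM under siRNA 2, against 1053, 1063 and 1093 CPM in control cells. In both genes siRNA 2 lay above the other groups. DNAJB6, an HSP70 co-chaperone, was below control under both siRNAs, with 59.9, 63.7 and 66.6 CPM under siRNA 1 and 99.5, 109 and 102 CPM under siRNA 2, against 125, 126 and 132 CPM in control cells.

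Promoters of members of these lists are shown because the members moved together. The window of each gene is its first listed promoter that held a motif match. Each runs 5′ to 3′ on the strand of its gene, from 250 bases before to 50 bases after the annotated start (RefSeq, GRCh38.p14), with motif matches on either strand in capitals. The E2F motif was searched as TTTCCCGC or TTTGGCGC, the heat shock element as 3 alternating units of GAA and TTC, starting with either and each 2 bases apart, and the amino acid response motif as TGATGCAA. The replication genes shown are MCM6 at chr2:135876394-135876693 on the minus strand and CDC6 at chr17:40287629-40287928 on the plus strand. The chaperone genes are HSP90AA1 at chr14:102086995-102087294 and HSPD1 at chr2:197499791-197500090, and AARS1, the alanyl-tRNA synthetase, is at chr16:70289457-70289756, all on the minus strand.
MCM6: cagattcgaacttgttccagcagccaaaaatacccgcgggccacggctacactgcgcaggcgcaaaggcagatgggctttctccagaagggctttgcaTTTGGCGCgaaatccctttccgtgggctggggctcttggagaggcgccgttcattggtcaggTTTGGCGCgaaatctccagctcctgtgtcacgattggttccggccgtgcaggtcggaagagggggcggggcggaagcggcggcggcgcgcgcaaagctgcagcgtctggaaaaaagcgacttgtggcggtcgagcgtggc
CDC6: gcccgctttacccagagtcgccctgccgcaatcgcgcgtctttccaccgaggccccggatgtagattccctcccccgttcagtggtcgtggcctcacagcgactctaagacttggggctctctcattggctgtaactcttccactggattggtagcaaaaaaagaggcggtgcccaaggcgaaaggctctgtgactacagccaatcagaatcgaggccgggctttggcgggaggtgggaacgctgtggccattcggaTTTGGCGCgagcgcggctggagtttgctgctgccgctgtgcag
HSP90AA1: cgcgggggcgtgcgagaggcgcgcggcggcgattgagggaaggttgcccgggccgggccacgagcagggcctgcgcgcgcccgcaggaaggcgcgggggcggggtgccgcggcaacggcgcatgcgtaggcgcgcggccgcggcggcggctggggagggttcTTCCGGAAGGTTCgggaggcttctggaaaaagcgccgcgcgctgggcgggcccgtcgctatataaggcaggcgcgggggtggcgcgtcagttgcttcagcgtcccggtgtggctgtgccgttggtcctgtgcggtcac
HSPD1: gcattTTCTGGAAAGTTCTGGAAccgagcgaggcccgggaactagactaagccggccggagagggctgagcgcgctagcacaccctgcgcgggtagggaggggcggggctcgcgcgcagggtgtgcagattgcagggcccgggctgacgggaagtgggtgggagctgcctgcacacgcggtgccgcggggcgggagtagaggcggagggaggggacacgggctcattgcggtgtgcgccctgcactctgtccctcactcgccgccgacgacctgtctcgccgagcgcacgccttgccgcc
AARS1: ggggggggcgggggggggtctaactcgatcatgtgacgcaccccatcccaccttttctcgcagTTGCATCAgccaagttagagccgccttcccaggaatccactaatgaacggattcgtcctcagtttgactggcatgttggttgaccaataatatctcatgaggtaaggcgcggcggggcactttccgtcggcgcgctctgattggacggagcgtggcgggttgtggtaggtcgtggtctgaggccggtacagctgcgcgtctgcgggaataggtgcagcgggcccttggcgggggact

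A gene counted as having a motif if any of its listed promoters of this length held a match. The E2F motif lay in 2.75% of 27305 genes with a promoter and in 23 of 50 tested replication genes with a promoter. Of those 23, 17 were lower under siRNA 1, and of the 27 without it 20 were lower, so the share of lower genes was close with and without these letters. The heat shock element lay in 0.608% of genes and in 6 of 40 chaperone genes, 5 of them lower, against 25 lower of the 34 without it. TGATGCAA lay in 1.08% of genes and in 11 of 37 genes of the ATF4 and amino acid list. Of those 11, 6 were lower, against 12 of the 26 without it. The MYC motif CACGTG lay in 8.77% of genes and in 20 of 44 ribosome biogenesis genes, 11 of them lower, against 13 of the 24 without it. A match says only that the letters are present in the window.

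Lists of protein synthesis and turnover also lay lower under siRNA 1. Of 55 MYC target and ribosome biogenesis genes, 30 were lower and 0 higher (median -0.145), among them POLR1B, the second-largest subunit of RNA polymerase I (-0.47), NOP16 (-0.29) and NOP56 (-0.27), both nucleolar proteins. Their sum was 8356 ± 19.99 CPM under siRNA 1 and 9333 ± 147 CPM under siRNA 2, against 8019 ± 110 CPM in control cells. The 73 cytosolic ribosomal proteins did not follow, with 2 higher and 4 lower and sums of 45410 ± 1580 CPM under siRNA 1 and 45290 ± 2373 CPM under siRNA 2. Under total-count scaling, 7 were higher and 3 lower, and over single libraries left out they ranged from 0 to 4 higher and from 1 to 5 lower.

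Of 47 ATF4 targets and amino acid supply genes, 24 were lower and 2 higher (median -0.163), and the higher count was 0 or 1 without any library other than siRNA 2 replicate 1. ASNS, asparagine synthetase, had 148, 145 and 143 CPM under siRNA 1 and 186, 186 and 189 CPM under siRNA 2, against 150, 160 and 154 CPM in control cells. The tRNA synthetases YARS1 (-0.49), EPRS1 (-0.39), AARS1 (-0.30) and GARS1 (-0.30) and the glutamine carrier SLC1A5 (-0.36) were lower too. The list summed to 7603 ± 14.7 CPM under siRNA 1 and 8402 ± 32.8 CPM under siRNA 2, against 7682 ± 20.5 CPM in control cells. Of 40 proteasome genes, 18 were lower and 0 higher, a count of 10 without siRNA 1 replicate 2 and 11 without siRNA 2 replicate 2. PSMD2, a non-ATPase subunit of the regulatory particle, had 346, 357 and 361 CPM under siRNA 1 and 494, 509 and 504 CPM under siRNA 2, against 511, 526 and 522 CPM in control cells.

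The nuclear genes of the respiratory chain had 21 of 70 lower and 1 higher, with 13 lower when siRNA 2 replicate 3 was left out. NDUFA4 (-0.61), ATP5PB (-0.41) and ATP5F1A (-0.37), the last 2 subunits of ATP synthase, were lower, and the complex I subunit NDUFA13 was the 1 higher (0.51). The 13 mitochondrially encoded genes had 3 higher and 1 lower, and the higher count was 0 without siRNA 1 replicate 2, siRNA 1 replicate 3 or siRNA 2 replicate 2. Of 49 glycolysis and hypoxia genes, 19 were lower and 8 higher, and the higher count was 5 without siRNA 1 replicate 1, siRNA 1 replicate 3 or siRNA 2 replicate 1. EPAS1, the hypoxia-inducible factor 2 alpha subunit, fell by 0.62 on the log2 scale, with 39.1, 38.6 and 38.7 CPM under siRNA 1 and 59.7, 60.9 and 57.8 CPM under siRNA 2, against 69.6, 71.2 and 67.9 CPM in control cells.

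**Figure D4:**
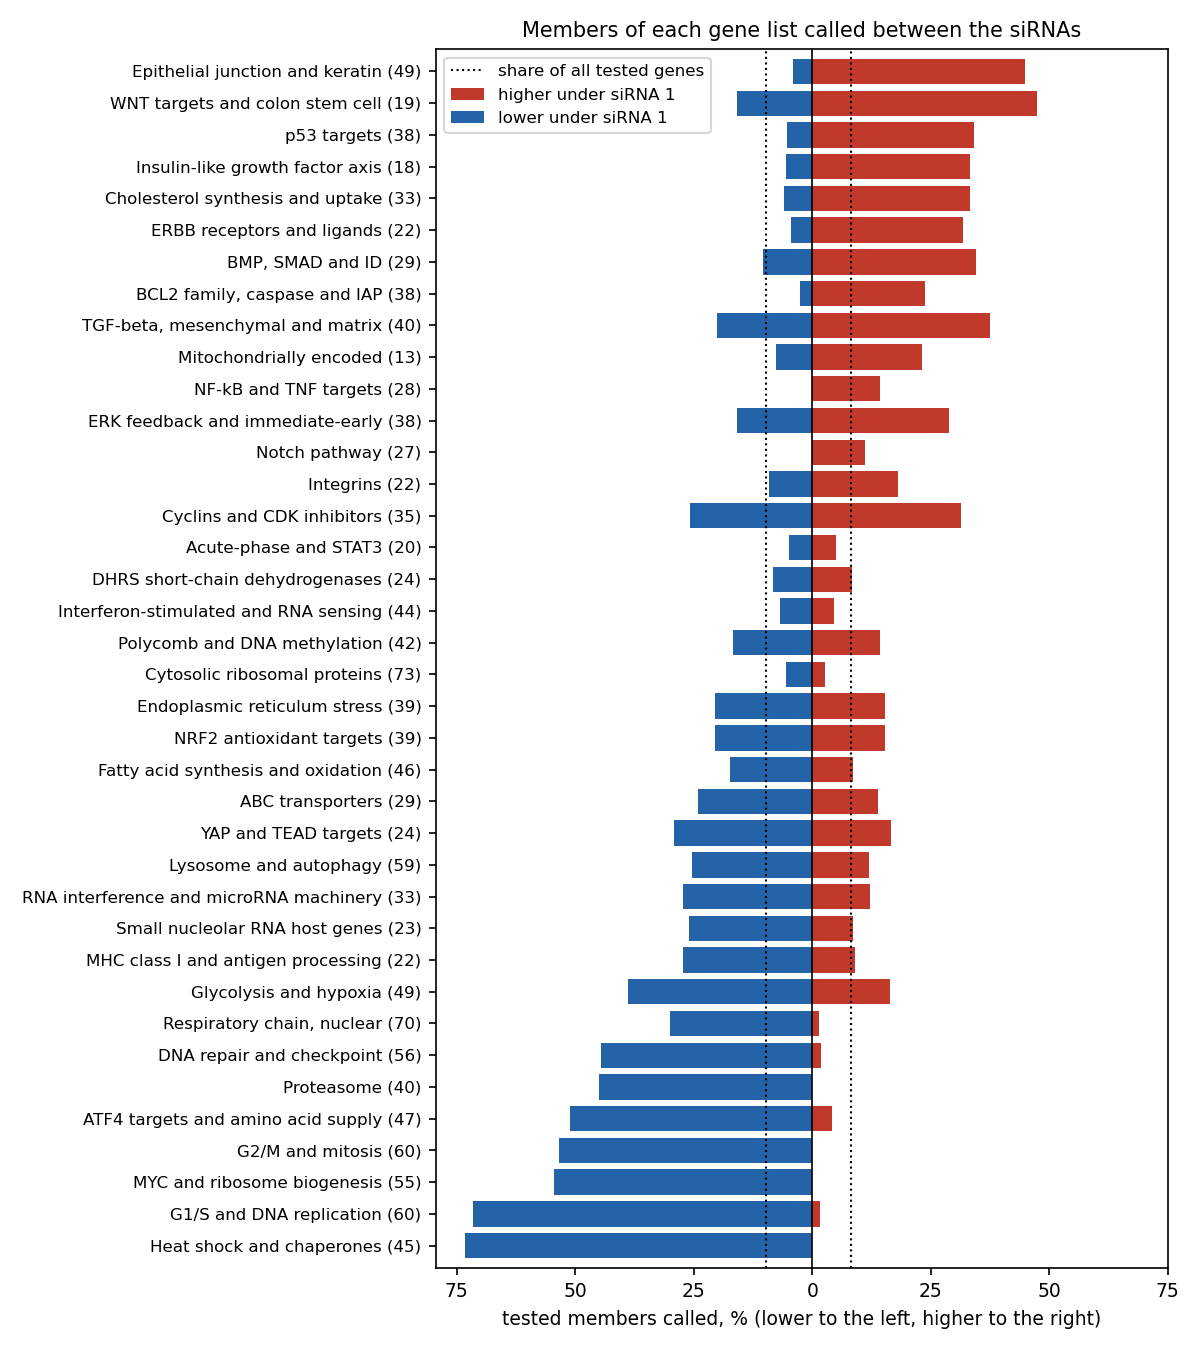
For each of 38 functional lists, with the number of tested members in brackets, red bars to the right give the percent of members called higher under siRNA 1 and blue bars to the left the percent called lower. Dotted lines mark the background of 8.09% and 9.83% over all tested genes, whatever their level. The chaperone, replication, ribosome biogenesis and mitosis lists reach furthest left, and epithelial and WNT lists furthest right.

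Of 49 epithelial junction and keratin genes, 22 were higher and 2 lower under siRNA 1 (median 0.1). KRT20, a keratin of differentiated intestinal epithelium, had 2.22, 2.23 and 1.72 CPM under siRNA 1 and 0.485, 0.449 and 0.483 CPM under siRNA 2, against 0.242, 0.609 and 0.424 CPM in control cells. Its log2 difference was 2.12 (SE 0.31, edgeR adjusted p = 0.00052), with siRNA 2 inside the control range. CDH1, or E-cadherin, the adhesion protein of epithelial junctions, had 113, 114 and 112 CPM under siRNA 1 and 76.4, 74.4 and 72.1 CPM under siRNA 2, against 70.8, 69.9 and 67.2 CPM in control cells. CRB3, an apical polarity protein (0.62), and KRT23 (0.98) were also higher. KRT7 was higher by 1.05 between the siRNAs while both lay below control, with 11, 11 and 11.8 CPM under siRNA 1 and 4.24, 6.34 and 5.67 CPM under siRNA 2, against 16.8, 16.0 and 17.3 CPM in control cells. The summed list was 8184 ± 78.0 CPM under siRNA 1 and 7917 ± 107 CPM under siRNA 2, against 8525 ± 120 CPM in control cells, and the abundant KRT8 was lower by a log2 of -0.13 between the siRNAs, a call lost without siRNA 1 replicate 1, siRNA 2 replicate 2 or siRNA 2 replicate 3.

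**Figure D5:**
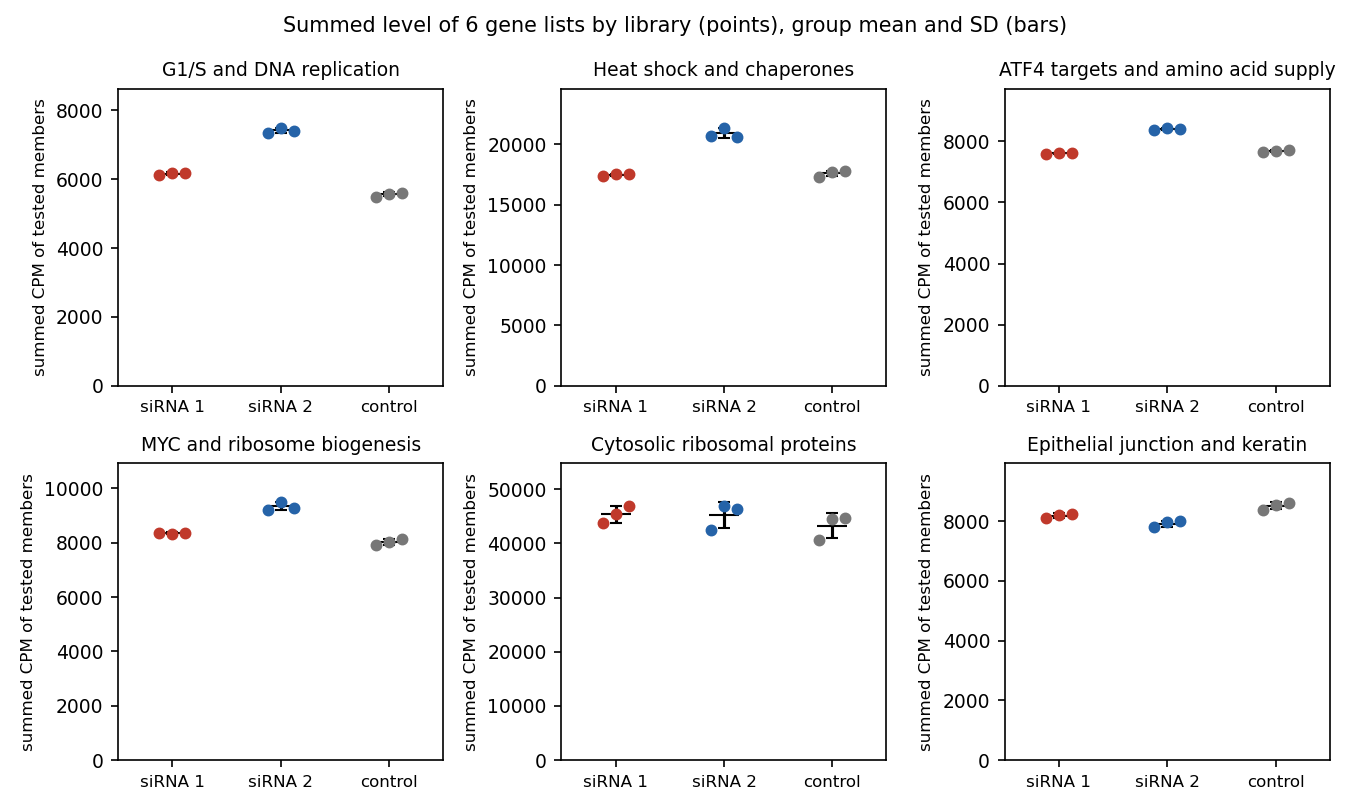
Summed CPM of the tested members of 6 lists on linear axes from 0, with a point per library and bars for the group mean and SD (n = 3), in the order siRNA 1, siRNA 2 and control. The replication, chaperone, amino acid and ribosome biogenesis sums are lower under siRNA 1 than under siRNA 2 without overlap, at 6159 against 7413 CPM for replication, and those of ribosomal proteins overlap.

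Mesenchymal and matrix genes moved both ways, with 15 of 40 higher and 8 lower (median 0.179). SNAI2, a transcriptional repressor of epithelial genes, was at 1.11, 1.40 and 2.09 CPM under siRNA 1 and at 0.182, 0.240 and 0.355 CPM under siRNA 2, against 0.742, 0.946 and 1.20 CPM in control cells (log2 2.55, SE 0.35, edgeR adjusted p = 0.00035). PMEPA1, an inhibitor of TGF-beta signalling, had 1.91, 1.72 and 2.03 CPM under siRNA 1 and 0.652, 0.419 and 0.398 CPM under siRNA 2, against 1.5, 1.59 and 2.17 CPM in control cells. Both were low under siRNA 2. The protease ADAMTS14 (0.83) and fibronectin, FN1 (0.64), were higher, and vimentin, VIM, the intermediate filament of mesenchymal cells, was lower (-0.76).

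Signalling lists were read next. Of 19 WNT targets and colon stem cell genes, 9 were higher and 3 lower (median 0.259). Besides SOX4, these included NOTUM (0.68) and DKK1 (0.52), both secreted WNT inhibitors, and CD44 (0.38), while the BMP co-receptor RGMB was lower (-0.48). BMP4, a ligand of the BMP pathway, had 180, 184 and 179 CPM under siRNA 1 and 118, 121 and 119 CPM under siRNA 2, against 76.3, 76.0 and 73.3 CPM in control cells. In the list of 29 BMP, SMAD and ID genes, 10 were higher and 3 lower. SMAD7 (0.54) and SMAD6 (0.47), inhibitors of the pathway, were higher, and ID2, an inhibitor of DNA binding that BMP signals induce, was lower (-0.58).

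Of 22 ERBB receptor and ligand genes, 7 were higher and 1 lower. EGF, a ligand of EGFR, had 1.22, 1.47 and 1.18 CPM under siRNA 1 and 0.440, 0.315 and 0.455 CPM under siRNA 2, against 1.17, 1.59 and 1.01 CPM in control cells. The ligands EREG (0.36) and AREG (0.23) and the receptor EGFR (0.28) were higher by less. Of 38 ERK feedback and immediate-early genes, 11 were higher and 6 lower, with EGR3, an immediate-early factor (0.74), and SPRY1, a feedback inhibitor (-0.53), at either end beside DUSP4. Of 18 insulin-like growth factor genes, 6 were higher and 1 lower, among them IGF2 (0.40), IRS1 (0.37) and IGF1R (0.36). The Notch list had 3 of 27 higher and 0 lower, with the receptor NOTCH3 at 0.48. NF-kB and TNF targets had 4 of 28 higher and 0 lower. YAP and TEAD targets had 4 of 24 higher and 7 lower, or 2 and 5 without siRNA 1 replicate 2, and TEAD1, the DNA-binding partner of YAP, was lower (-0.33). Integrins had 4 of 22 higher and 2 lower, or 2 and 1 without siRNA 1 replicate 1 or siRNA 2 replicate 3. The lower count was 0 without siRNA 1 replicate 2, siRNA 1 replicate 3 or siRNA 2 replicate 1, and 1 without any other single library. ITGB4, the beta subunit in hemidesmosomes, was at 978, 1004 and 998 CPM under siRNA 1 and 738, 728 and 729 CPM under siRNA 2, against 657, 629 and 616 CPM in control cells.

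Of 38 p53 targets, 13 were higher and 2 lower (median 0.129), although both siRNAs lay below control: 23 fell and 5 rose under siRNA 1 against control, and 29 fell and 1 rose under siRNA 2 against control. PMAIP1, which encodes the BH3-only protein NOXA, had 103, 101 and 110 CPM under siRNA 1 and 69.1, 66.7 and 77.8 CPM under siRNA 2, against 105, 103 and 112 CPM in control cells. BBC3, or PUMA (0.44), and BTG2, an antiproliferative protein (0.45), were higher, and the decoy receptor TNFRSF10D was lower (-0.43). In the list of the BCL2 family, caspases and inhibitors of apoptosis, 9 of 38 were higher and 1 lower. BCL2L11, which encodes the death-promoting BIM, had 56.9, 54.6 and 52.5 CPM under siRNA 1 and 35.3, 32.8 and 31.4 CPM under siRNA 2, against 34.4, 33.0 and 30.1 CPM in control cells.

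Lipid genes differed by pathway. Of 33 cholesterol synthesis and uptake genes, 11 were higher and 2 lower (median 0.16), including MSMO1, a sterol oxidase (0.37), HMGCS1, a synthase early in the pathway (0.28), and INSIG1, a sterol-regulated feedback protein (0.26). Against control, 15 of them fell and 7 rose under siRNA 1, and 20 fell and 4 rose under siRNA 2. Of 46 fatty acid genes, 4 were higher and 8 lower, with the desaturase SCD at 1389, 1402 and 1404 CPM under siRNA 1 and 1078, 1091 and 1091 CPM under siRNA 2, against 1196, 1202 and 1183 CPM in control cells. Its relative SCD5 was lower (-0.49), as was the elongase ELOVL5 (-0.40). Of 59 lysosome and autophagy genes, 7 were higher and 15 lower, with ATP6V1A and the protease CTSL (-0.39) among the lower.

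The remaining lists had calls in both directions. Interferon-stimulated and RNA sensing genes, which respond to double-stranded RNA, had 2 of 44 higher and 3 lower, and 3 higher and 1 lower under total-count scaling. The lower count was 0 without siRNA 1 replicate 1, and both counts were 1 without siRNA 2 replicate 1 or 3. The MHC class I list had 2 of 22 higher, among them HLA-B (0.26), and 6 lower, a count of 3 without siRNA 1 replicate 2. The 33 genes of the RNA interference machinery had 4 higher and 9 lower, with 5 lower when siRNA 1 replicate 2 was left out; AGO4, an Argonaute, was higher (0.40), and TNRC6B, its silencing partner, lower (-0.41). Acute-phase and STAT3 genes, the group that ORM1 belongs to by its known induction, had 1 of 20 higher and 1 lower. Endoplasmic reticulum stress genes had 6 of 39 higher and 8 lower, with 6 and 5 under total-count scaling. The higher count was 3 without siRNA 1 replicate 1 or siRNA 2 replicate 3 and 2 without siRNA 1 replicate 3 or siRNA 2 replicate 1, and the lower count was 5 without siRNA 1 replicate 2. NRF2 targets had 6 of 39 higher and 8 lower, with the quinone reductase NQO1 at -0.45. ABC transporters had 4 of 29 higher and 7 lower, with the drug exporter ABCB1 at -0.88 and the peroxisomal ABCD3 at -0.62. Short-chain dehydrogenases of the DHRS family had 2 of 24 higher and 2 lower, with DHRS1 at -0.68 opposite DHRS2. Polycomb and DNA methylation genes had 6 of 42 higher and 7 lower, and small nucleolar RNA host genes 2 of 23 higher and 6 lower, with 0 to 2 higher over single libraries left out. The colon marker list had 2 of 16 tested higher and 2 lower.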

How the data were processed

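The authors deposited raw read counts per Ensembl gene for 9 libraries, made on genome build hg19 per the submitters' processing notes. No aligner, counting tool, annotation or strand setting is given in the sources used here, so antisense and overlapping genes are uncertain. Low values favoured multiples of 4 (11894 entries of 4, against 6787 of 3 and 4317 of 5), so 1 count need not equal 1 fragment. A gene record was found for 61757 of 61806 identifiers, and GENCODE release 29 (GRCh38), which held 58254, gave positions, lengths and GC content.

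Genes kept by filterByExpr were scaled by TMM (factors 0.985 to 1.014) and fitted with 1 term per group over all 9 libraries in edgeR 4.0.16 (R 4.3.3), with a common biological coefficient of variation of 0.147. The contrast was siRNA 1 minus siRNA 2, with p-values adjusted over 20932 genes and a threshold of 0.05. SE is the size of a log2 difference over the square root of F. ORM1 and ORM2 levels were compared by exact permutation in Python 3.11.15 with numpy 2.4.6. Replicate pairs of a group differed by more than sampling noise, and the labels name no batch that splits the groups.

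The members, the 42 lists (1540 symbols, 1412 tested) and the rule for naming genes were chosen with earlier results of these data known. Named genes were ORM1 and ORM2, the 15 largest differences of each sign at a mean of at least 5 CPM, the 5 largest of each sign in each class against control, and up to 6 called members of each list. Genes with no symbol and readthrough genes were left out, and not all are printed, since some results are not reported here. Alternatives were other scalings and filters, DESeq2 1.42.0, limma-voom (limma 3.58.1), stricter thresholds, a fit of 6 libraries, a replicate block, counts divided by 4 and each library left out. On simulated counts of this contrast over 20366 genes, 42%, 70%, 78% and 98% of 50 genes each were recovered when the fold was 1.25, 1.5, 2 and 3, and 9 of 153 calls were false. Only these genes were changed, all at a mean of at least 1 CPM, whereas 3752 genes were called in the data. The rates need not hold for the real contrast.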

Additional observations from a re-analysis of the deposited data

Results flagged for a closer look

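For the 10 genes below, both siRNAs were called against the shared control libraries with opposite signs, and edgeR's quasi-likelihood test of the difference between the siRNAs passed. They were the 5 largest differences of each sign at a mean of at least 5 CPM among the 135 genes of this kind. Higher under siRNA 1 than under siRNA 2 were ARRDC4 (log2 difference 1.09), HCP5 (1.04), H1-2 (1.02), HTR7P1 (0.87) and DUSP4 (0.76). Lower under siRNA 1 than under siRNA 2 were DIAPH3 (-1.18), ME2 (-1.03), PIMREG (-0.97), ENC1 (-0.92) and CDK8 (-0.87). CDK8, a kinase of the Mediator complex, had 25.3 ± 1.58 CPM under siRNA 1 and 46.4 ± 2.45 CPM under siRNA 2, against 39.95 ± 2.00 CPM in control cells (SD, n = 3 each). ENC1, an actin-binding protein, had 47.9 ± 0.815 CPM under siRNA 1 and 90.7 ± 3.30 CPM under siRNA 2, against 79.6 ± 4.48 CPM in control cells. HTR7P1 is a pseudogene and HCP5 overlaps other genes, so their counts depend on how shared reads were treated.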

How the results depend on the processing

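The 3752 calls ranged from 3031 with no count filter to 4241 with DESeq2, and from 2695 to 3749 when 1 library was left out. With 1 library left out, higher genes ranged from 1171 to 1679 and lower from 1524 to 2070. Genes called against control under siRNA 1 only ranged from 899 to 1259, under siRNA 2 only from 721 to 897, under neither from 275 to 618, and with opposite signs from 76 to 126. Opposite signs numbered 89 with no filter. At an adjusted p below 0.01 there were 2085 calls (895 higher, 1190 lower), with 755 under siRNA 1 only, 527 under siRNA 2 only and 51 of opposite sign. Against a fold of 1.5 there were 46 (26 higher, 20 lower), with 28 under siRNA 1 only, 3 under siRNA 2 only, 12 under neither and 0 of opposite sign, and every list lost most of its calls. The cause was not tested beyond the stricter thresholds. The ORM2 difference turned to -0.0491 CPM without siRNA 1 replicate 1, to -0.0181 CPM without siRNA 2 replicate 1, and to -0.0377 CPM for both genes summed, with a range of -0.0491 to 0.1057 CPM (log2 -0.872 to 1.185) over single libraries left out, where the ORM1 difference ranged from -0.121 to -0.0361 CPM. Of 251 named called genes, 207 kept call and direction without any 1 library, 44 lost the call without at least 1, and 0 reversed. Deviations of log2 CPM from the group mean were correlated between siRNA 1 and siRNA 2 libraries, over 11778 genes at a mean of at least 5 CPM. Libraries of the same replicate number gave -0.003, 0.158 and 0.058, and those of different number -0.191 to 0.117. These values cannot settle whether the numbers pair the samples. The summed cytosolic ribosomal proteins were lowest in replicate 1 of every group, at 43774 CPM under siRNA 1, 42568 CPM under siRNA 2 and 40630 CPM in control cells. With replicate number as a block 3794 genes were called, with 16 cytosolic ribosomal proteins higher and 6 lower. Depth limits genes under 1 CPM, ORM1 and ORM2 included.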
